A study of Mus musculus with 8 samples.

Results

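Expression of 10 mouse genes for enzymes and readers of repressive chromatin was compared across resting B cells and 3 kinds of germinal centre B cells. The genes were Ezh2, Ezh1 and Eed of the Polycomb system, Dnmt1 and Uhrf1 of DNA methylation, Suv39h1, Cbx1 and Cbx5 of heterochromatin, and the histone deacetylases Hdac1 and Hdac2. Every probe set whose annotation names 1 of these symbols was taken, which gave 12 of the 12488 probe sets for 9 of the 10 genes. Suv39h1 had none and was not analysed here. Of the 12 probe sets, 10 exceeded the dimness filter, at least 1 for each of the 9 genes.

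RNA came from B cells of F1 mice between the QM and B6 strains, sorted by GL7 and B220 and hybridised to 8 Affymetrix arrays, 2 for each of 4 groups. QM mice carry a rearranged immunoglobulin heavy chain gene that makes many of their B cells specific for the hapten NP, and all 4 groups share this background. Each array held cells pooled from 4 to 10 mice, and the submitters describe the replicates as biological. The resting group was GL7- B220+ and came from unimmunised animals. The other 3 groups were GL7+ B220+. The group called TI day 4 had been given 30 µg NP-Ficoll, an antigen that needs no T cell help, 4 days earlier. The TD day 4 mice were carrier primed with 50 µg of alum-precipitated chicken gamma-globulin and heat-killed B. pertussis, then after 5 weeks received 50 µg of soluble NP-CGG and were killed on day 4. TD day 10 mice, never carrier primed, had 50 µg of the alum-precipitated NP conjugate with heat-killed B. pertussis 10 days before. The age of the mice is not given in the sources used here.

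Polycomb repressive complex 2 methylates a lysine of histone H3 and so helps to keep genes silent. Its catalytic subunit is either Ezh2, which is abundant in dividing cells and is required for normal germinal centre formation in mice, or the related Ezh1, which is typical of resting cells. Dnmt1 copies DNA methylation onto the new strand after replication, guided there by Uhrf1, which recognises half-methylated DNA. The proteins of Cbx1 and Cbx5 (HP1 beta and HP1 alpha) bind another methylated lysine of histone H3 in heterochromatin, and Hdac1 and Hdac2 remove acetyl groups from histones within several corepressor complexes.

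The labelled identities were set against their markers. Over all probe sets 5.50% were called lower and 7.73% higher in the mean of the GL7+ groups, beside which the counts in the mean below stand. The B cell receptor chain gene Cd79a read 9702 and 7003 intensity units in resting and 4405 to 5621 in the GL7+ arrays. The sum of 7 B cell genes was 33478 to 37052 in resting and 25208 to 30562 in the GL7+ arrays, and 4 of 7 (Cd79a, Cd79b, Cd22 and Cd72) were called lower in the mean of the GL7+ groups. Bcl6, which marks germinal centre B cells, read 438 to 452 in resting, 1236 to 1475 in the TD arrays and 846 and 1034 in TI day 4. Gcsam, another germinal centre marker, read 154 and 101 in resting and 501 to 768 in the TD arrays, but 156 and 131 in TI day 4. It was not called between TI day 4 and resting (adjusted p = 0.77) and was called 4.94-fold lower than in TD day 4 and 4.34-fold lower than in TD day 10 (adjusted p = 0.028 and 0.023). The TI day 4 cells are called germinal centre B cells here after their label, with that marker at the resting level. The T cell gene Cd3e was below 0 on all arrays, while Cd4 read 292 and 339 in resting, 422 to 710 in the TD arrays and 366 and 382 in TI day 4. The sum of 6 T cell genes was 434 to 449, 506 to 834 and 453 to 474 in the same order, and 0 of 2 tested were called by limma in the mean (0 at an unadjusted p under 0.05). Transcripts of other cells differed between groups. The summed signal of 6 red cell genes on the array was 23496 to 26280 in resting, 1956 to 2203 in the TD arrays and 3148 to 3664 in TI day 4, and 3 of the 5 genes tested were called lower in the mean of the GL7+ groups. The red cell membrane gene Slc4a1 read 724 and 707 in resting, 221 to 419 in the TD arrays and 1700 and 2317 in TI day 4, where it was 5.09- and 8.41-fold higher than in TD day 4 and TD day 10 (adjusted p = 0.0099 and 0.0040). The sum of 8 neutrophil genes was 6542 to 6852 in resting against 1764 to 2917, with 3 of 7 called lower. The sum of 9 macrophage genes was 4014 to 4095 in resting, 2065 to 3135 in the TD arrays and 5851 to 6726 in TI day 4, with 2 of 8 called lower in the mean of the GL7+ groups. Apoe, 1 of these genes, read 434 and 775 in resting, 371 to 1305 in the TD arrays and 4213 and 3371 in TI day 4. On both TI arrays C1qa, C1qc and Lyz2 were lower than in resting, and C1qb and Cd14 were higher. The sum of 6 plasma cell genes was 2168 to 2255 in resting, 2844 to 4167 in the TD arrays and 10289 to 13763 in TI day 4, and 1 of 4 was called higher in the mean. In TI day 4 alone 3 of 4 were called higher than in resting, beside 5.42% of all probe sets. They were Jchain (10.6-fold, adjusted p = 0.00093), Xbp1 (3.84-fold, adjusted p = 0.018) and Tnfrsf17 (2.69-fold, adjusted p = 0.018), and Irf4 was not called. Jchain, at 7347 and 9356 in TI day 4, made up a large part of that sum. The defining neutrophil gene S100a8 read 2833 and 3279 in resting and 169 to 938 elsewhere, and the haemoglobin gene Hba-a1 read 15550 and 13751 against 285 to 696. The part of these cells in the results below was not tested, and with bulk RNA a change in the share of a cell type cannot be told apart from a change in RNA per cell.

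Ezh2 was higher in every germinal centre group than in resting B cells. Its probe set (99917_at) read 48 and 71 in resting, 387 and 309 in TD day 4, 280 and 318 in TD day 10, and 284 and 330 in TI day 4. All 6 germinal centre arrays lay above both resting arrays, and the 3 germinal centre groups overlapped one another. Both resting values were under 81, the median of all deposited values, which was used as a floor below which signals were not ordered. Flooring made the 2 resting values equal, so the spread between them is missing from the SE and p-values below. Against that floor Ezh2 was at least 4.27-fold higher in TD day 4 (log2 difference 2.09 ± 0.18 SE, limma adjusted p = 0.0025), at least 3.68-fold higher in TD day 10 (adjusted p = 0.0034) and at least 3.78-fold higher in TI day 4 (adjusted p = 0.0030). These bounds move with the floor: with the floor at the 60th percentile (143) the mean difference of the germinal centre groups from resting was 1.14 on the log2 scale, and with the 40th percentile (36) it was 2.44, and the call held under each.

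Ezh1, which encodes the alternative catalytic subunit, went the other way. Its probe set (100486_at) read 566 and 682 in resting, 197 and 166 in TD day 4, 182 and 186 in TD day 10, and 177 on each of the TI day 4 arrays. The 6 germinal centre values spanned 166 to 197 and lay well apart from the resting values. The fall was 3.44-fold in TD day 4 (log2 difference -1.78 ± 0.17 SE, adjusted p = 0.0033), 3.38-fold in TD day 10 (adjusted p = 0.0034) and 3.51-fold in TI day 4 (adjusted p = 0.0029). No floored value entered these folds. Ezh1 was the 1 member that was lower in germinal centre cells.

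Eed encodes the subunit that binds the histone mark and stimulates the catalytic subunit. Its probe set (103342_at) read 221 and 161 in resting, 394 and 488 in TD day 4, 475 and 448 in TD day 10, and 291 and 246 in TI day 4. The TD arrays were the highest, the resting arrays the lowest, and the TI arrays lay between without overlapping either. Eed rose 2.32-fold in TD day 4 (log2 difference 1.22 ± 0.22 SE, adjusted p = 0.023) and 2.45-fold in TD day 10 (1.29 ± 0.22, adjusted p = 0.017). In TI day 4 the log2 difference from resting was 0.50 ± 0.22 and did not pass (adjusted p = 0.25). Neither TD call held without resting replicate 2 (adjusted p = 0.069 and 0.058). That in TD day 4 was also lost without either of its own arrays (0.081 and 0.13) or either array of TD day 10 (0.052 and 0.051), and that in TD day 10 without either of its own arrays (0.098 and 0.080).

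Dnmt1 had its strongest signal in the TI response. Its brighter probe set (101445_at) read -377 and -175 in resting, 461 and 323 in TD day 4, 366 and 354 in TD day 10, and 754 and 867 in TI day 4. Both resting values were below 0, every germinal centre value was above the floor, and both TI values exceeded all 4 TD values. Measured from the floor, Dnmt1 was at least 4.76-fold higher than resting in TD day 4 (adjusted p = 0.0028), at least 4.44-fold in TD day 10 (adjusted p = 0.0034) and at least 9.98-fold in TI day 4 (log2 difference 3.32 ± 0.21 SE, adjusted p = 0.0012). As for Ezh2, the bounds shift with the floor, with a mean log2 difference of 1.75 at the higher and 3.74 at the lower floor. The spread between the resting values (-377 and -175) was likewise removed by flooring and is missing from the SE and p-values. The other Dnmt1 probe set (161601_i_at) read between -39 and 36 on the 8 arrays and was too dim to test.

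Uhrf1, whose protein brings Dnmt1 to replicated DNA, had a probe set (99564_at) that read 116 and 122 in resting, 946 and 773 in TD day 4, 769 and 842 in TD day 10, and 501 and 652 in TI day 4. The germinal centre arrays were all far above resting, and here the TI values were the lowest of the germinal centre values. The rise was 7.19-fold in TD day 4 (log2 difference 2.85 ± 0.20 SE, adjusted p = 0.0013), 6.76-fold in TD day 10 (adjusted p = 0.0015) and 4.80-fold in TI day 4 (2.26 ± 0.20, adjusted p = 0.0025). Among the members with measurable resting signal on both arrays it had the largest change.

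**Figure D1:**
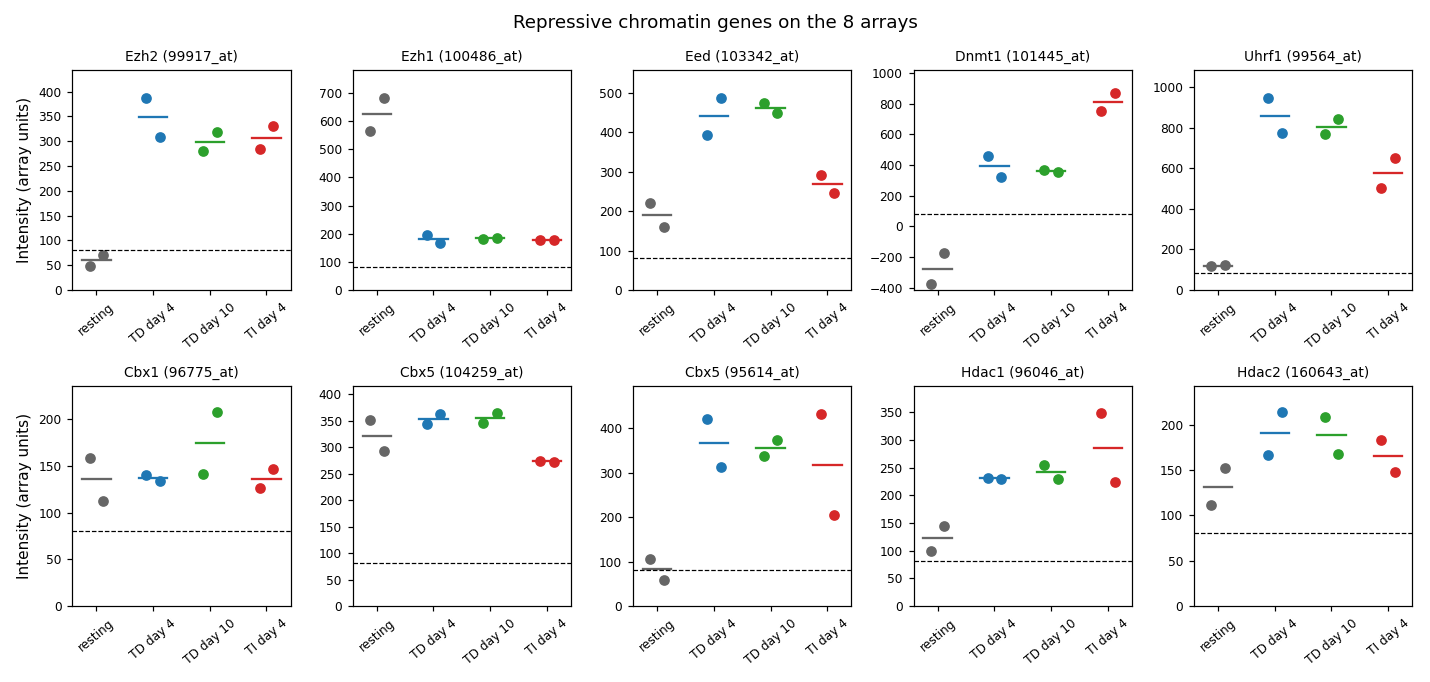
Intensity (array units, linear axis) of the 10 tested probe sets in each group. Points are single arrays, short bars group means of 2 arrays, and the dashed line the floor of 81; the Ezh2 values of 280 to 387 in germinal centre arrays stand above 48 and 71 in resting, and Ezh1 shows the opposite order.

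Because Ezh2, Dnmt1 and Uhrf1 rose together, their promoters were searched for the motif of E2F, the transcription factor family of the G1 to S transition, and Ezh1 is shown beside them as the member that fell. The motif was taken as TTTCCCGC, TTTCGCGC, TTTGCCGC or TTTGGCGC on either strand, within RefSeq windows of 250 bases before to 50 after a gene's start (build GRCm38.p6). The sequences read 5′ to 3′ on the gene's strand up to 30 bases after the start, and capitals mark a match. The part shown lies for Ezh2 at chr6:47595001-47595280 (minus strand), for Dnmt1 at chr9:20952594-20952873 (minus strand), for Uhrf1 at chr17:56304063-56304342 (plus strand) and for Ezh1 at chr11:101226434-101226713 (minus strand).
Ezh2: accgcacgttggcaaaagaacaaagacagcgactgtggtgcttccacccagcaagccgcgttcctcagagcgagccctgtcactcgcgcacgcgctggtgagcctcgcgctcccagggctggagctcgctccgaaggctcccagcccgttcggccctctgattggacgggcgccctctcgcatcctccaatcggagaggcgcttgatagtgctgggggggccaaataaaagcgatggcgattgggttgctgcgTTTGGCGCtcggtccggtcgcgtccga
Dnmt1: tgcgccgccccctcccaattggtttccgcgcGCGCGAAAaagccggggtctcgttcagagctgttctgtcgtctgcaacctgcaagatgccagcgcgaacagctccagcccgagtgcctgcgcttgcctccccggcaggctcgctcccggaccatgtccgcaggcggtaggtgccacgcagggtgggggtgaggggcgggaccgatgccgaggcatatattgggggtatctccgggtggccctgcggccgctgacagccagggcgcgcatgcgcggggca
Uhrf1: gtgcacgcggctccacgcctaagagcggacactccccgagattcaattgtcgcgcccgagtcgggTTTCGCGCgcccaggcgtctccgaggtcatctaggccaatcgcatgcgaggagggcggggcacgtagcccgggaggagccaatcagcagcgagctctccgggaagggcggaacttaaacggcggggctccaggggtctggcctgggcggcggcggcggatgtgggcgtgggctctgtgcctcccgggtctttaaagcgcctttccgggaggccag
Ezh1: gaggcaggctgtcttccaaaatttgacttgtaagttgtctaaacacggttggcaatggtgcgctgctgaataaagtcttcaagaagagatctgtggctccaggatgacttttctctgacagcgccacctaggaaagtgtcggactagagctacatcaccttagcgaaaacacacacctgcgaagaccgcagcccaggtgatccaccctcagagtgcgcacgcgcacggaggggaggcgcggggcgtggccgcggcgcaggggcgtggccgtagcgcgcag
The Ezh2 match TTTGGCGC begins 4 bases into the transcript, at position 4 counted from 1 at the start. In Uhrf1 the letters TTTCGCGC begin at position -185. Dnmt1 has TTTCGCGC on the opposite strand from position -219 and another on the gene's strand, TTTGGCGC, at position 34, inside the searched window but beyond the part shown. These Dnmt1 and Uhrf1 windows belong to 1 of several starts listed for each gene (3 for Dnmt1 and 2 for Uhrf1), and the windows at the other starts held no match. Of 14 windows for 9 member genes, 4 windows in 4 genes held the motif, the fourth being Suv39h1, against 2.26% of all 32851 windows in the table. The windows of Ezh1, Cbx1, Cbx5 and Hdac2 held none, nor did that of Eed, which was called higher in both TD groups. Hdac1 had no window. The genes shown were picked by their change in these data, so the share of members with a match is a description only. A match describes these letters in this window and is not evidence of binding.

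Heterochromatin genes gave mixed readings. Cbx1 (96775_at) read 159 and 113 in resting, 140 and 134 in TD day 4, 141 and 208 in TD day 10, and 126 and 147 in TI day 4, so that all groups overlapped. Its mean log2 difference from resting was 0.14 ± 0.21 SE (adjusted p = 0.75). A further Cbx1 probe set (160797_r_at) read between 7 and 58 and was too dim to test.

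The 2 probe sets of Cbx5 disagreed. The first (104259_at) read 351 and 293 in resting, 344 and 362 in TD day 4, 345 and 364 in TD day 10, and 274 and 273 in TI day 4. The resting and TD values overlapped, the TI values were below the other 6, and the mean log2 difference was 0.017 ± 0.13 SE (adjusted p = 0.95). The second (95614_at) read 106 and 60 in resting, 421 and 314 in TD day 4, 339 and 374 in TD day 10, and 432 and 205 in TI day 4. There every germinal centre array was above resting, and the calls were a rise of at least 3.92-fold in TD day 4 (adjusted p = 0.027), at least 3.84-fold in TD day 10 (adjusted p = 0.025) and at least 3.21-fold in TI day 4 (adjusted p = 0.044). No direction is therefore given for the gene as a whole. The 3 calls of the second were lost without resting replicate 1 (adjusted p = 0.060, 0.053 and 0.089 in the same order), without resting replicate 2 (0.10, 0.10 and 0.13), and for each TD group without either of its own arrays (0.092 to 0.14). Those in TD day 4 and TI day 4 were also lost without either array of TD day 10 (0.058 to 0.083), and that in TI day 4 without either array of TD day 4 (0.078) or without its own replicate 1 (0.11).

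Of the deacetylases, Hdac1 (96046_at) read 100 and 145 in resting, 232 and 230 in TD day 4, 255 and 229 in TD day 10, and 348 and 224 in TI day 4. The resting arrays were the lowest and the germinal centre groups overlapped. Its mean rise over the 3 groups was 2.07-fold (log2 difference 1.05 ± 0.23 SE, adjusted p = 0.031), with a call in TI day 4 (2.32-fold, adjusted p = 0.047) and adjusted p = 0.10 and 0.077 in TD day 4 and TD day 10. The call on the mean was lost under 9 of 18 alternatives, among them leaving out resting replicate 1 (adjusted p = 0.14) or any 1 array of TD day 4 or TD day 10 (0.066 to 0.076), and the call in TI day 4 under 16 of 19. Hdac2 (160643_at) read 111 and 152 in resting, 167 and 214 in TD day 4, 209 and 168 in TD day 10, and 183 and 148 in TI day 4. The TI values overlapped resting, and the mean log2 difference, 0.47 ± 0.20 SE, did not pass (adjusted p = 0.21).

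Counted over the 10 tested probe sets, 6 were higher and 1 was lower in the mean of the germinal centre groups than in resting, while over all probe sets 7.73% were called higher and 5.50% lower, 13.2% in either direction. The count was 5 higher and 1 lower in TD day 4, where 5.83% of all probe sets were called higher and 3.58% lower, 9.42% together. It was the same in TD day 10, against 6.45% higher and 4.44% lower, 10.9% together. Hdac1 was the probe set called in the mean but in neither TD group. TI day 4 again had 5 higher and 1 lower, with Hdac1 called and Eed not, against 5.42% higher and 3.98% lower, 9.40% together. The median log2 difference of the 10 was 1.08 in TD day 4, beside -0.023 over all 7253 probe sets tested. In TD day 10 it was 1.15 beside 0.045, and for TI day 4 it was 0.86 beside -0.025. These 3 comparisons share the 2 resting arrays and are not independent of one another. The members were chosen with earlier results of these data known. Ezh2 and Dnmt1 were under the floor on both resting arrays and passed the filter only through germinal centre arrays. The shares and medians over all probe sets are therefore given as a description and not as a test of the members. In TD day 10 the split over all probe sets, 468 higher and 322 lower, became 364 and 392 when arrays were scaled to a common median, and the member calls stayed at 6.

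**Figure D2:**
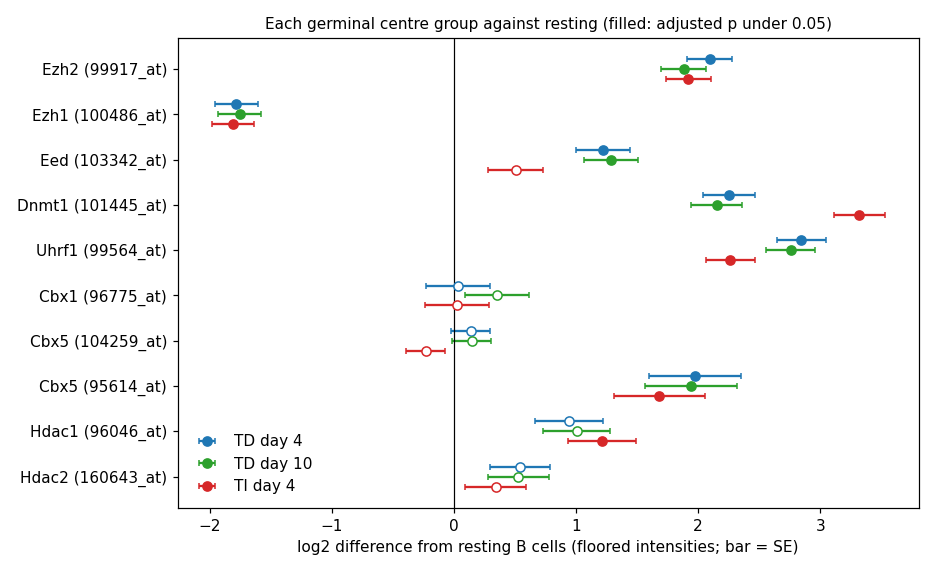
log2 difference of each germinal centre group from resting for the 10 tested probe sets, with standard errors as bars and filled symbols for adjusted p under 0.05. Ezh2, Dnmt1 and Uhrf1 lie to the right and Ezh1 to the left in all 3 groups, while Dnmt1 is farthest right in TI day 4 (3.32) and Uhrf1 and Eed are lowest there (2.26 and 0.50).

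The germinal centre groups were then compared with each other. TI day 4 also differed from TD day 4 in antigen dose and carrier priming, and from TD day 10 in antigen dose, adjuvant and day of sorting. The TD groups differed from each other in both priming and day. The kind of response cannot be told apart from these. With limma 0 of the 10 probe sets passed in any of the 3 comparisons. At an unadjusted p under 0.05 3 differed between TI day 4 and TD day 4, 3 when TI day 4 was set against TD day 10, and 0 between the TD groups. Over all probe sets TI day 4 differed from TD day 4 at 1.45% (0.731% higher and 0.717% lower) and from TD day 10 at 2.40% (1.20% higher and 1.20% lower). Comparing both TD groups 0% were called by limma. At an unadjusted p under 0.05, 14.4% of all probe sets differed between TI day 4 and TD day 4, 17.2% when TI day 4 was set against TD day 10, and 5.14% (373) between the TD groups. Between TI day 4 and TD day 10 the 87 higher and 87 lower probe sets became 118 and 77 at a common median.

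The same 3 genes stood behind the unadjusted counts. Dnmt1 was 2.10-fold higher in TI day 4 than in TD day 4 (log2 difference 1.07 ± 0.21 SE, adjusted p = 0.075, range 0.050 to 0.33 over the alternatives) and 2.25-fold higher than in TD day 10 (1.17 ± 0.21, adjusted p = 0.052, range 0.034 to 0.35). It was higher on both TI arrays than on any of the 4 TD arrays. Uhrf1 gave -0.58 ± 0.20 and -0.49 ± 0.20 (adjusted p = 0.26 and 0.28), and Eed -0.71 ± 0.22 and -0.79 ± 0.22 (adjusted p = 0.22 and 0.14). Both were lower on each TI array than on every TD array. Ezh2 differed by -0.18 ± 0.18 and 0.037 ± 0.18 and Ezh1 by -0.031 ± 0.17 and -0.056 ± 0.17 between TI day 4 and TD day 4 or TD day 10. The TI arrays also had a higher ratio of 3′ to 5′ Gapdh signal (1.24 and 1.68) than the TD arrays (0.836 to 0.981). On the resting arrays that ratio was 0.867 and 1.59. Sums of plasma cell (in large part Jchain), macrophage (in large part Apoe) and red cell genes were higher in TI than in TD arrays and Gcsam was lower, as given above. The part of these in the differences was not tested. With the Gapdh ratio as a covariate the Dnmt1 difference from TD day 4 was 1.01 ± 0.28 (adjusted p = 0.29), and from TD day 10 it was 1.09 ± 0.32 (adjusted p = 0.35).

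For each member the order of the groups was thus known only in part. Ezh2, Uhrf1 and Dnmt1 were lowest in resting with no called difference among the other groups, and Ezh1 was highest in resting with no called difference among the rest. Eed was lower in resting than in the TD groups, with TI day 4 not separated from either. Cbx1, Hdac2 and the flat Cbx5 probe set gave no called order.

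Across the 8 arrays the log2 signal of Ezh2 followed that of Uhrf1 (Pearson r = 0.985), ran against Ezh1 (r = -0.973) and followed Dnmt1 less closely (r = 0.910). All these values share the gap between resting and germinal centre arrays and are given as a description. Among all tested probe sets with 1 gene symbol, those most like Ezh2 were Hmces, which shields abasic sites in single-stranded DNA (r = 0.996), Rrm1, a subunit of ribonucleotide reductase (r = 0.995), the replicative helicase subunit Mcm3 at 2 probe sets (r = 0.994 and 0.993) and the actin regulator Dstn (r = 0.994). Those most like Dnmt1 were the copper transporter Slc31a1 (r = 0.990), Dap (r = 0.988), the mitotic checkpoint gene Bub3 (r = 0.987), Spef1 (r = 0.987) and Hoxb5 (r = 0.986). None of the latter 5 is among the 5 nearest to Ezh2.

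Other subunits of the same machinery were read from lists of related genes, each gene at its brightest probe set. For the average germinal centre group against resting, the counts of each list stand beside 7.73% of all probe sets called higher and 5.50% lower, and 25.8% (1874 of 7253) at an unadjusted p under 0.05 in either direction. Of 7 tested partners of Polycomb repressive complex 2, 2 rose and 0 fell in the mean of the germinal centre groups (3 higher and 1 lower at an unadjusted p under 0.05), with a median log2 difference of 0.44 against 0.0041 over all probe sets. Rbbp7, a histone-binding subunit shared with deacetylase complexes, read 635 and 676 in resting, 1968 and 1973 in TD day 4, 2001 and 1959 in TD day 10, and 1448 and 1342 in TI day 4. Its groups did not overlap between resting, TI and TD, and the mean rise was 2.68-fold (adjusted p = 0.0013). Suz12, a core subunit needed for the complex to be stable, read 116 and 177 in resting and 205 to 339 in germinal centre arrays, a mean rise of 2.07-fold (adjusted p = 0.038). That call was lost without resting replicate 1, any 1 array of the TD groups or TI replicate 1 (adjusted p between 0.061 and 0.16).

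Of 9 tested genes of Polycomb repressive complex 1, which reads the mark, 0 passed on the mean (3 at an unadjusted p under 0.05), and the median log2 difference was 0.046. Those counts are near the shares over all probe sets. Cbx2, a subunit that binds the mark, had a log2 difference of 0.74 ± 0.20 SE (adjusted p = 0.065). Ring1, a ubiquitin ligase of this complex, read 203 and 190 in TI day 4 and was at or under 76 on the other 6 arrays. It was at least 2.42-fold higher in TI day 4 than in TD day 4 (adjusted p = 0.019) and than in TD day 10 (adjusted p = 0.013), the 1 gene of the list called in either comparison. Each call was lost without either array of the TD group concerned (adjusted p = 0.13 for TD day 4, 0.093 and 0.084 for TD day 10), and the first also without either array of TD day 10 (0.058 and 0.057).

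Of 5 tested genes of DNA methylation and its readers, 3 rose and 0 fell (4 higher and 1 lower at an unadjusted p under 0.05), with a median of 0.83. Mbd2, which binds methylated DNA, read 154 and 203 in resting and 508 to 710 in germinal centre arrays, a mean rise of 3.51-fold (adjusted p = 0.0030). Mbd4, a glycosylase that removes thymine and uracil mispaired at methylation sites, read 99 and 182 in resting and 394 to 568 in germinal centre arrays, 3.43-fold (adjusted p = 0.0062). Usp7, a deubiquitinase that acts on both Uhrf1 and Dnmt1, rose 1.78-fold (adjusted p = 0.031), a call lost when any 1 array was left out other than resting replicate 2 (adjusted p between 0.060 and 0.097). The de novo methyltransferase genes were not among the 5 tested.

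Of 9 genes of heterochromatin and its methyltransferases 2 rose and 0 fell (3 higher at an unadjusted p under 0.05), with a median of 0.038. These 2 are not methyltransferases. Incenp, a scaffold of the mitotic chromosomal passenger complex, rose 4.27-fold (adjusted p = 0.0026) from 105 and 120 in resting to between 271 and 582. Lbr, an inner nuclear membrane protein, rose 1.76-fold (adjusted p = 0.037), a call lost when any 1 array was left out other than resting replicate 1 (adjusted p between 0.057 and 0.16). Smarca5, a chromatin remodelling ATPase named after its values were seen, read 166 and 136 in TI day 4 and 320 and 305 in TD day 10, 2.08-fold lower in TI (adjusted p = 0.035). That call was lost when any 1 array of the 3 germinal centre groups was left out (adjusted p between 0.085 and 0.18).

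Among 11 genes of histone deacetylation 1 rose and 0 fell (2 higher and 1 lower at an unadjusted p under 0.05), with a median of 0.13, again near the shares over all probe sets. It was Sap30, a subunit of the Sin3 complex, at 130 and 92 in resting and 202 to 221 in germinal centre arrays, 1.95-fold higher (adjusted p = 0.014). Sirt2, a deacetylase of tubulin and histones, had a log2 difference of 0.66 (adjusted p = 0.095). Of 3 demethylases of repressive marks 0 passed, also 0 at an unadjusted p under 0.05; Kdm3a and Kdm3b had log2 differences of 0.57 and -1.23 (adjusted p = 0.23 and 0.26). By comparison 15 of 18 replication and cycling genes rose and 0 fell, with a median of 1.77, and Pcna, the replication clamp, went from 664 and 800 in resting to between 2611 and 3789. The summed signal of that list was 5574 to 5888 in resting and 17991 to 22418 in germinal centre arrays. The members that rose and the cycling genes shared the gap between resting and germinal centre arrays. From TD day 4 and TD day 10 to TI day 4 the cycling list had median log2 differences of -0.24 and -0.29. Of the 3 members at an unadjusted p under 0.05, Uhrf1 (-0.58 and -0.49) and Eed (-0.71 and -0.79) had the same sign there, and Dnmt1 (1.07 and 1.17) the opposite. Single cycling genes went both ways. At an unadjusted p under 0.05, 2 were higher and 4 lower in TI day 4 than in TD day 10, and 0 and 2 against TD day 4. Lig1 read 513 and 808 in TI day 4 and 181 to 521 in the TD arrays, and Cdk1 692 and 711 against 294 to 690. The part of cycling in the rise of the members was not tested.

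**Figure D3:**
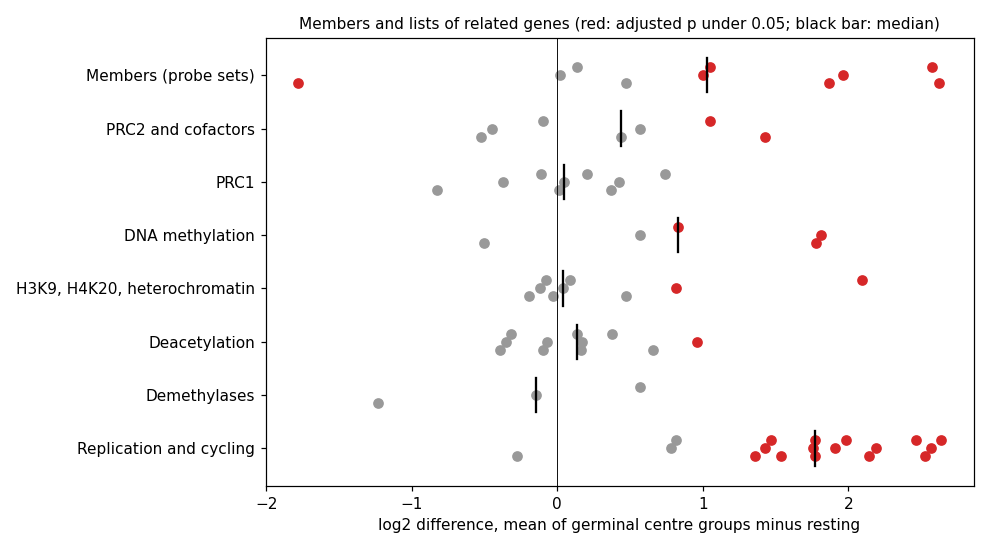
log2 difference between the mean of the germinal centre groups and resting for the 10 member probe sets and for each list of related genes. Each point is 1 probe set in the member row, where Cbx5 has 2, and 1 gene in the lists. Points are red where the adjusted p was under 0.05, and a black bar marks the median. The replication and cycling genes centre on 1.77, and the DNA methylation and Polycomb repressive complex 2 lists on 0.83 and 0.44. The Polycomb repressive complex 1, heterochromatin and deacetylation lists centre on 0.046, 0.038 and 0.13, and the demethylases on -0.14.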

How the data were processed

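The 8 arrays were Affymetrix mouse arrays. The authors deposited 1 intensity per probe set and array, on a linear scale, of which 30.1% were at or below 0. The software and any scaling target were not given in the sources used here. The medians of 77 to 89 and nearly equal trimmed means fit arrays brought to a common level. Here intensities were floored at 81, the 50th percentile of all values, and log2 transformed. Control probe sets (66) were left out, and 7253 of 12488 probe sets above the floor on at least 2 arrays were kept. limma 3.58.1 in R 4.3.3 fitted the 4 groups over all 8 arrays, with Benjamini-Hochberg adjustment over all probe sets in each of 7 comparisons and a threshold of 0.05; adjusted p-values in the report come from it. A fold is a lower bound where an array of the dimmer side was at the floor. Precision is limited by 2 arrays a group. Where both arrays of a group were at the floor, their spread is missing from the SE and adjusted p, which can then be too small. The test was tried on simulated data. Symbols came from GEO's platform annotation: 10855 probe sets had 1 gene, 396 several and 1237 none, and 10839 of the first were matched by gene identifier to RefSeq.

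Members and lists were chosen with earlier results of these data known. Named genes were all members, each list's genes called between resting and the average germinal centre group (or, with fewer than 2 called, those with the smallest p), and the 5 probe sets most like Ezh2 and Dnmt1. Same-numbered arrays did not deviate together (correlations -0.22 to 0.12), so no pairing was used. Alternatives changed scaling, floor, filter, prior, array weights, replicate block, the Gapdh 3′ to 5′ ratio as a covariate, the arrays fitted and each array in turn. Promoters came from RefSeq (GRCm38.p6).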

Additional observations from a re-analysis of the deposited data

Results flagged for a closer look

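A pair of genes outside the members differed between germinal centre groups. Ring1 was higher in TI day 4 than in TD day 4 by 1.28 on the log2 scale and than in TD day 10 by 1.28, the same bound because all TD arrays were at the floor. Smarca5 was lower in TI day 4 than in TD day 10, with a log2 difference of -1.06. Compared with the TD arrays, the TI arrays also had higher Gapdh 3′ to 5′ ratios and higher plasma cell (in large part Jchain), macrophage (in large part Apoe) and red cell sums. With the Gapdh ratio as a covariate the Ring1 and Smarca5 calls were lost (adjusted p = 0.11 and 0.15 for Ring1 and 0.29 for Smarca5). The part of the ratios and sums in the differences was not tested.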

How the results depend on the processing

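Over 70 member results, 1320 recomputed values held 1191 with the same sign and side of the threshold, 71 that lost a call, 5 that gained one and 53 that turned sign. None of the 53 had a call on either side, and 45 moved by less than the standard error. The other 8 were Cbx1 in the mean without resting replicate 2 (0.14 to -0.11 on the log2 scale), Dnmt1 between the TD groups without TD day 4 replicate 1 (-0.10 to 0.16), Hdac1 in TI against TD day 4 and TD day 10 without TI replicate 1 (to -0.044 and -0.11), and the second Cbx5 probe set in the same 2 comparisons with the Gapdh ratio (to 0.18 and 0.34) or without TI replicate 2 (to 0.25 and 0.28). Ezh2, Ezh1, Dnmt1 and Uhrf1 were called against resting in all 4 comparisons under every alternative run. For Ezh2 and Dnmt1 this says less than for Ezh1 and Uhrf1, because both resting arrays were under the floor. Leaving out either resting array could not move their differences from resting, so it does not test their resting level. Ezh2 and Dnmt1 also passed the filter only through germinal centre arrays. Without the filter on dim probe sets 4 members, not 7, were called in the mean of the germinal centre groups. Over all probe sets the calls there also fell, from 960 to 690. Dnmt1 was the 1 member called between TI day 4 and TD day 4 with array weights, and the 1 called between TI day 4 and TD day 10 under quantile normalization, a common median, the higher floor and array weights. With the replicate block 6 members were called in the mean, 6 in TD day 4, 6 in TD day 10, 5 in TI day 4 and 0 between germinal centre groups. Over all probe sets 723 were called in the mean with the block, against 960 in the reported fit. Leaving out 1 array at a time gave 5 to 7 members in the mean, 4 to 6 in TD day 4 and in TD day 10, 4 to 5 in TI day 4 and 0 in the rest. A fit on only the arrays compared could not be had for the mean, which uses all of them.

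Over all probe sets, 960 were called in the mean, 521 with array weights, 624 without resting replicate 2 and 632 without TD day 4 replicate 1. In TD day 4 683 became 192 and 242 without each of its arrays and 208 with only the arrays compared. In TD day 10 790 became 511 with array weights, 491 with the Gapdh ratio, 502 without resting replicate 2, 276 and 269 without its own arrays and 266 with only the arrays compared. In TI day 4 682 became 434 without the filter, 454 with array weights, 326 and 256 without its own arrays and 213 with only the arrays compared. Between TI day 4 and TD day 4 105 became 42 without the filter, 46 with the block, 261 with weights, 0 with the Gapdh ratio and 0 to 167 leaving out 1 array at a time. Between TI day 4 and TD day 10 174 became 104 without the filter, 107 with the block, 292 with weights, 7 with the Gapdh ratio, 104 with only the arrays compared and 4 to 254 leaving out 1 array at a time. Between TD day 10 and TD day 4 0 became 14 without the filter and 1 without TD day 4 replicate 2. The cause was not tested. Signals under the floor have no order, which limits Ezh2 and Dnmt1 to bounds.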
